A study of Mus musculus with 9 samples.

Results

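Group 2 innate lymphoid cells (ILC2) were set against microglia from the same kind of brain, across all gene rows of the deposited count table: 2 libraries headed ILC2 and 3 libraries headed microglia, 5 of the 9 library columns in the table. The libraries were chosen by their column headings, and 24394 of the 24423 table rows entered. ILC2 came from brains of C57BL/6 mice aged 20 to 22 months that had received 400 ng of IL-33 a day for 7 days, and the microglia came from brains of mice of the same strain, age and treatment. Both populations were sorted on surface markers that the labels do not name, and total RNA was sequenced as single-end 75 bp reads. Every library came from an IL-33-treated animal, so no value here measures an effect of IL-33 or of age. The labels list 3 ILC2 and 3 microglia samples, and whether each library came from 1 animal or from a pool is not given, so p-values measure the spread between these libraries only.

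ILC2 are lymphocytes without rearranged antigen receptors that answer tissue alarm signals such as IL-33, whose receptor is encoded by Il1rl1, by releasing type 2 cytokines under the transcription factor GATA3. In the brain they lie mainly in the meninges and choroid plexus. Microglia are the resident macrophages of the brain parenchyma, depend on the growth factor receptor CSF1R and the transcription factor PU.1, and survey, engulf and digest cell debris through complement, Fc and TREM2 receptors and an extensive lysosomal system.

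Depth was similar in both groups: the ILC2 libraries held 10544868 and 12585870 counts on genes, and the microglia libraries between 10705652 and 12047894. Levels are given as CPM, counts scaled to library size with TMM factors; 3 counts in 1 library correspond to 0.238 to 0.312 CPM. CPM is not corrected for gene length and is compared here between libraries, not between genes. The 100 genes with the most counts held 26.7% and 32.2% of the counts of the ILC2 libraries, against 41.3% to 43.0% in the microglia libraries. Across the tested genes, log2 levels correlated with r = 0.847 between the 2 ILC2 libraries and 0.786 to 0.819 between microglia libraries, and with 0.585 to 0.625 between the populations, over 6 pairs of libraries; these values describe the libraries and genes are not replicates.

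The column headings were checked first on 4 marker genes. Gata3 (chr2:9857078-9887953, GRCm38.p6) had 1107 and 647 CPM in ILC2, against 0.808, 0.0987 and 0 CPM in microglia. Klrg1 (chr6:122270596-122282833), an inhibitory lectin receptor of mature ILC2, had 1025 and 1517 CPM in ILC2 and 6.47, 10.2 and 20.5 CPM in microglia. Both were high in each ILC2 library and the groups did not overlap. Cx3cr1 (chr9:120048683-120068296), the fractalkine receptor of microglia, had 101 and 68.5 CPM in ILC2, against 5932, 7551 and 5706 CPM in microglia. Tmem119 (chr5:113793729-113800396), a microglial membrane protein, had 19.3 and 19.7 CPM in ILC2 and 3486, 4272 and 3167 CPM in microglia. All 7 ILC2 markers were called higher and all 6 microglia markers lower in ILC2, so each heading went with its own markers.

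**Figure D1:**
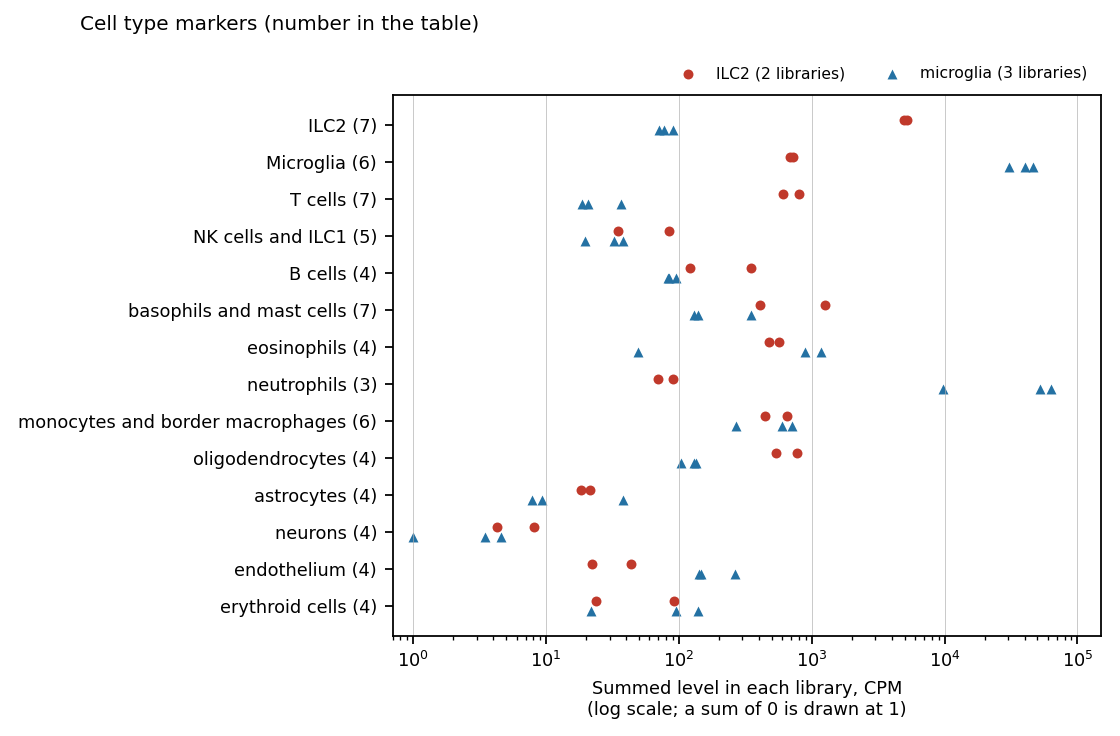
Summed level of the markers of 14 cell types in each library, in CPM on a log axis, with the number of markers in the table in brackets; circles are the 2 ILC2 libraries and triangles the 3 microglia libraries. ILC2 markers sum to 4907 and 5246 CPM in ILC2 and to 90 CPM or less in microglia, and neutrophil markers reach 63610 CPM in microglia.

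Markers of other cells were present in both groups. Neutrophil markers summed to 69.7 and 90.9 CPM in ILC2, against 52210, 9727 and 63610 CPM in microglia, and all 3 in the table were called lower in ILC2. S100a9, a calcium-binding protein abundant in neutrophils, had 7.42 and 11.2 CPM in ILC2 and 23260, 3921 and 28740 CPM in microglia (log2 fold -10.97, SE 1.43, adjusted p = 0.00129), a call that limma-voom did not make. Eosinophil markers summed to 476 and 568 CPM in ILC2 and to 1182, 894 and 49.1 CPM in microglia. In the other direction, oligodendrocyte markers summed to 768 and 537 CPM in ILC2 and to 131, 103 and 135 CPM in microglia. Mbp, the myelin basic protein gene, was the 1 of 4 oligodendrocyte markers called higher (log2 fold 2.62, SE 0.31). Basophil and mast cell markers summed to 409 and 1249 CPM in ILC2 and to 349, 139 and 129 CPM in microglia, with none of 7 called. The T cell list summed to 604 and 800 CPM in ILC2 and to 20.6, 36.9 and 18.8 CPM in microglia; Cd3g alone made up 558 and 790 CPM of the ILC2 sums, and Cd6 had no count in ILC2. The part of such cells in the differences below was not tested.

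**Figure D2:**
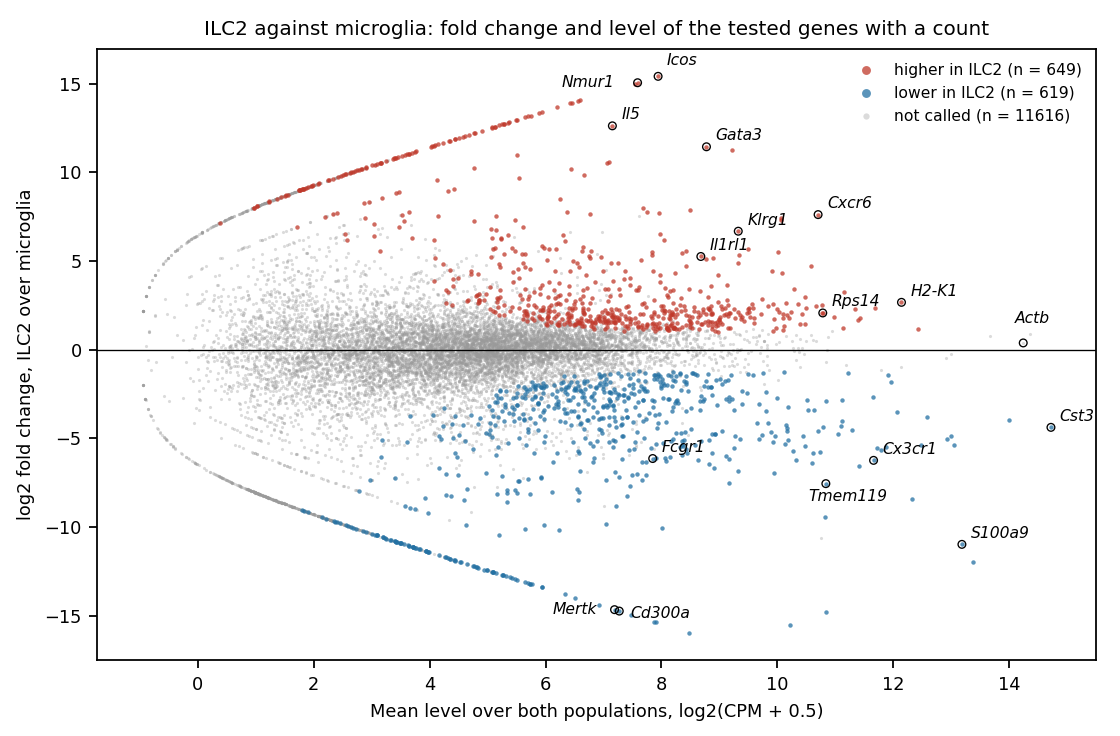
Log2 fold change of ILC2 over microglia against the mean level, as log2(CPM + 0.5), for the 12884 tested genes with a count in the 5 libraries. Red points are the 649 genes called higher, blue points the 619 called lower and grey points those not called; the outer arcs are genes with no count in 1 population, whose fitted folds have no fixed size.

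Of 13000 genes tested with edgeR, 649 were called higher in ILC2 (4.99%) and 619 lower (4.76%), 9.75% in all, at an adjusted p under 0.05 and a change of at least 1 on the log2 scale. The median log2 fold of all tested genes was -0.01. All libraries of one population lay above all of the other for every called gene, a separation that 43.0% of all tested genes showed. The median size of the change was 2.57 on the log2 scale among the higher genes and 4.06 among the lower ones. The higher genes made up 30.1% of the CPM of ILC2 and 5.2% of that of microglia, whereas the lower genes made up 4.32% of the CPM of ILC2 and 44.1% of that of microglia. No count in microglia was seen for 107 of the higher genes, and no count in ILC2 for 103 of the lower genes. Without the second ILC2 library 342 genes were called higher and 369 lower; without the first, 402 were lower, and without the second microglia library 393. Scaling by total counts called 1017 higher and 519 lower, 66.2% higher against 51.2%, and moved the median of all tested genes to 0.31.

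**Figure D3:**
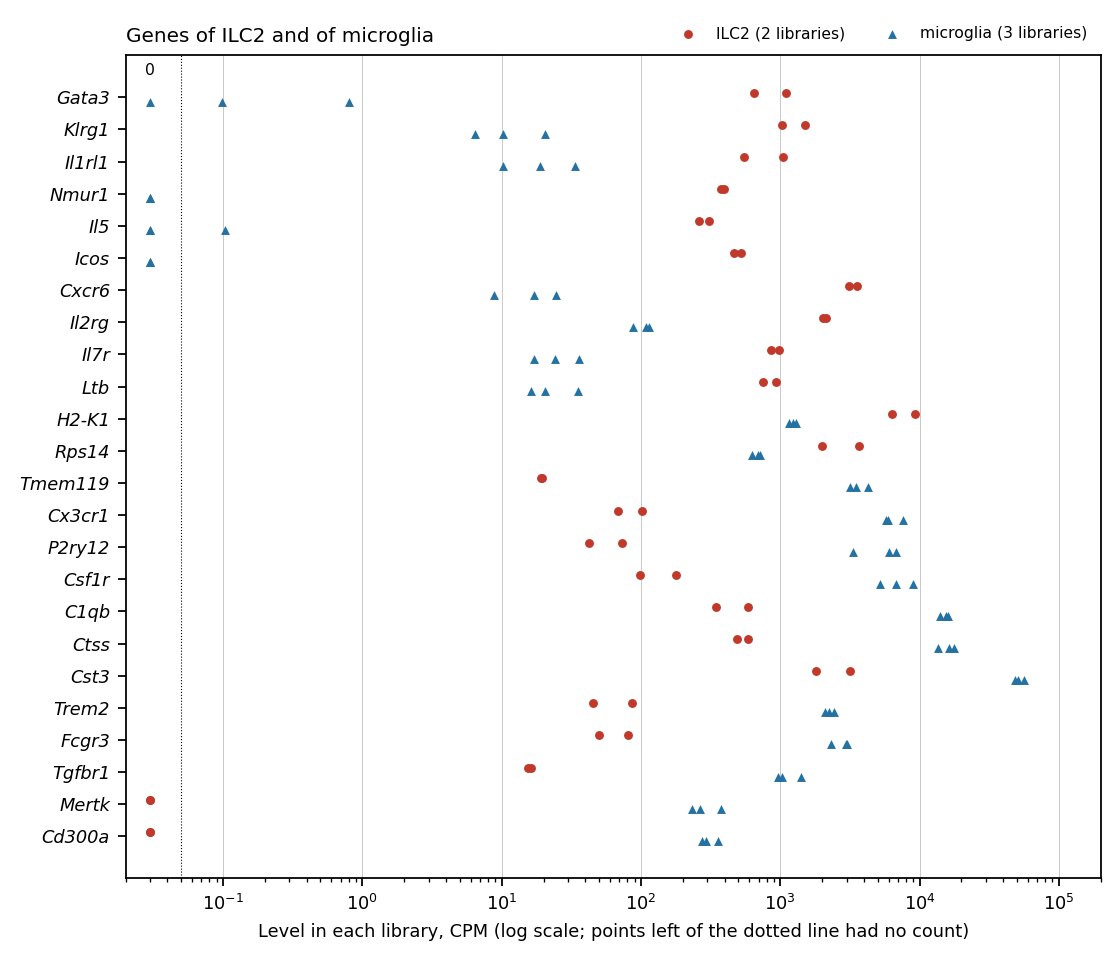
Level of 24 genes in each library, in CPM on a log axis; circles are the 2 ILC2 libraries, triangles the 3 microglia libraries, and points left of the dotted line had no count. The upper 12 genes were higher in both ILC2 libraries than in any microglia library and the lower 12 were lower. All 24 were called genes, and every called gene showed this separation, as did 43.0% of all tested genes.

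Surface receptors known from ILC2 were mostly higher in ILC2. Of 24 receptors tested, 17 were called higher and 1 lower, with a median log2 fold of 5.51. The gene lists here and below were chosen with earlier results of these data known, so their counts only describe the lists. Beside each list count stand the shares over all tested genes, 4.99% called higher and 4.76% lower. Il1rl1 (chr1:40404864-40465418), the IL-33 receptor chain, had 1045 and 553 CPM in ILC2, against 18.8, 33.6 and 10.3 CPM in microglia (log2 fold 5.26, SE 0.76, adjusted p = 0.00214). Il7r, the IL-7 receptor, had 861 and 986 CPM in ILC2 and 24.2, 17.2 and 36.1 CPM in microglia (log2 fold 5.16, SE 0.37). Il2rg, the common cytokine receptor chain, was also detected in every microglia library, at 2116 and 2020 CPM in ILC2 against 108, 115 and 87.3 CPM in microglia. Both ILC2 libraries stood well above the microglia libraries for each of these chains.

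Other receptors had no count at all in microglia. Icos, a co-stimulatory receptor, had 462 and 520 CPM in ILC2 and none in any of the 3 microglia libraries, at least 1616-fold higher (adjusted p = 5.57e-05; the bound sets each microglia library at 3 counts). Nmur1 (chr1:86386242-86389361), the receptor for the neuropeptide neuromedin U, had 375 and 393 CPM in ILC2 and none in microglia, at least 1264-fold higher. Il2rb, a chain of the IL-2 and IL-15 receptors, had 151 and 141 CPM in ILC2 and none in microglia, at least 480-fold higher. Cd96, a receptor of the nectin family ligand CD155, likewise had no count in microglia and was at least 621-fold higher in ILC2. None of these 4 genes had a single count in 3 microglia libraries. Ramp1, which forms the CGRP receptor with Calcrl, had 612 and 970 CPM in ILC2 and 76.3, 107 and 121 CPM in microglia (log2 fold 2.97, SE 0.39). Cd81, a tetraspanin, was the only member lower in ILC2, at 912 and 861 CPM against 6385, 5888 and 4476 CPM in microglia (log2 fold -2.65, SE 0.30). Il17rb, the IL-25 receptor, had 200 and 295 CPM in ILC2 and 7.48, 0 and 0 CPM in microglia but did not pass (adjusted p = 0.0931).

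Type 2 cytokines and other ILC2 products had 9 of 19 members called higher and none lower (median log2 fold 6.24). Il5 (chr11:53720794-53725103), the eosinophil growth factor, had 261 and 306 CPM in ILC2, and 0, 0 and 0.104 CPM in microglia. That is 7105 counts against 1, a ratio of 8409 with a counting interval of 1509 to 332100 (adjusted p = 0.000162); its log2 fold was 12.62, and 14.64 without the third microglia library. Ccl1, a chemokine for CCR8, had 67.1 and 41.4 CPM in ILC2 and none in microglia, at least 179-fold higher. Both genes were present in each ILC2 library and nearly or wholly without counts in microglia. Calca, the precursor of CGRP, had 180 and 677 CPM in ILC2, against 0, 2.86 and 3.02 CPM in microglia (log2 fold 7.76, or 8.48 and 6.51 without the first and the second ILC2 library). Arg1, which cleaves arginine, had 1742 and 2503 CPM in ILC2 and 0, 8.79 and 29.0 CPM in microglia (log2 fold 7.40, SE 1.46, adjusted p = 0.0116). The Arg1 call was lost without the second microglia library (adjusted p = 0.0515), and its log2 fold was 8.91 without the third and 6.81 without the first. Areg, the epidermal growth factor family member amphiregulin, had 187 and 244 CPM in ILC2 and 7.27, 0 and 6.14 CPM in microglia (adjusted p = 0.0257), a call lost on leaving out any library but the second microglia one, where the log2 fold was 5.005, against 5.59 with all libraries. Il4 (103 and 100 CPM in ILC2; 17.6, 9.97 and 0 CPM in microglia) and Il6 (96.5 and 157 CPM in ILC2; 24.04, 10.96 and 14.9 CPM in microglia) did not pass.

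Among 22 lymphoid transcription factors, 9 were called higher in ILC2 and none lower; their median log2 fold of 1.85 was 3.75 without the first and 2.46 without the third microglia library, with 9 called in both cases. Gata3, described above, was among them (log2 fold 11.44, SE 0.92, adjusted p = 0.000174), and 13.79 without the first microglia library, which held most of its 9 microglia counts. Id2, the inhibitor of E proteins needed by all innate lymphoid cells, had 3214 and 5011 CPM in ILC2 and 437, 400 and 478 CPM in microglia (log2 fold 3.23, SE 0.28). Bcl11b, a zinc finger factor of T cells and ILC2, had 64.6 and 79.9 CPM in ILC2 and no count in microglia, at least 238-fold higher. All 3 factors were separated between the groups in every library, as was every called gene. Batf, an AP-1 factor, had 199 and 362 CPM in ILC2, against 41.7, 19.4 and 18.5 CPM in microglia (log2 fold 3.40, SE 0.45). Pparg, a lipid-sensing nuclear receptor, had 215 and 245 CPM in ILC2 but 16.2, 0 and 0 CPM in microglia and did not pass (adjusted p = 0.163).

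Parts of the antigen receptor signalling chain were higher in ILC2 as well: 12 of 24 tested members were called higher and none lower, with a median log2 fold of 4.82, which was 3.10 without the first ILC2 library and 5.88 without the second microglia library. Cd3g, a CD3 chain, had 558 and 790 CPM in ILC2, against 12.8, 20.5 and 9.79 CPM in microglia (log2 fold 5.55, SE 0.39). Skap1, an adaptor linking the receptor to integrins, had 589 and 844 CPM in ILC2 and 0, 3.26 and 5.94 CPM in microglia (log2 fold 7.87), which was 7.28 without the first and 8.76 without the third microglia library. The phosphatase gene Ptpn22 had 394 and 502 CPM in ILC2 and 21.2, 10.96 and 1.46 CPM in microglia (log2 fold 5.32, or 6.17 without the first microglia library). Ptprc, which encodes CD45, had 787 and 415 CPM in ILC2 and 442, 540 and 326 CPM in microglia, and the ILC2 and microglia values overlapped. Cd3g is also the 1 of 7 T cell markers called higher; the other 6 summed to 45.9 and 9.59 CPM in ILC2 and to 7.78, 16.4 and 8.96 CPM in microglia, and those sums overlapped.

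In the co-stimulatory and TNF family, 12 of 23 members were called higher and 1 lower. Their median log2 fold was 5.13, but 2.66 without the first ILC2 library, where 11 were called higher and 3 lower. Ltb, lymphotoxin beta, had 933 and 755 CPM in ILC2 and 16.3, 20.6 and 35.2 CPM in microglia (log2 fold 5.13, SE 0.48). Tnfrsf18, which encodes GITR, had 413 and 632 CPM in ILC2, against 12.9, 8.79 and 0 CPM in microglia (log2 fold 6.17, or 6.88 without the first microglia library). Tnfrsf1a, the type 1 TNF receptor, went the other way, with 10 and 3.57 CPM in ILC2 and 385, 367 and 265 CPM in microglia (log2 fold -5.64, or -6.51 without the first ILC2 library). Nfkb1, the p50 precursor, had 461 and 652 CPM in ILC2 and 132, 127 and 95.7 CPM in microglia (log2 fold 2.24, SE 0.33), 1 of 2 genes called among 15 of the NF-kB pathway. Over all tested genes 9.75% were called in either direction.

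Receptors that place cells in tissue differed in both directions. Cxcr6, the CXCL16 receptor, had 3543 and 3097 CPM in ILC2 and 17.2, 8.89 and 24.7 CPM in microglia (log2 fold 7.62, SE 0.47, adjusted p = 8.28e-05). Ccr8, the receptor for CCL1, had 1459 and 929 CPM in ILC2, against 0, 0.198 and 1.25 CPM in microglia (log2 fold 11.26, or 13.39 without the third microglia library). Neither receptor overlapped between the groups, which held for every called gene. Itgb7, the integrin chain that binds mucosal addressin with alpha 4, had 1105 and 1422 CPM in ILC2 and 48.0, 40.2 and 6.04 CPM in microglia (log2 fold 5.33, SE 0.75). Of 14 genes of tissue egress and residency, 4 were called higher and 3 lower, against 4.99% and 4.76% of all tested genes. Both S1pr1 and Klf2 were among the lower ones. S1pr1, the egress receptor for sphingosine 1-phosphate, had 11.3 and 15.2 CPM in ILC2 and 128, 113 and 111 CPM in microglia (log2 fold -3.14, SE 0.42). Klf2, the factor that drives S1pr1 in T cells, had 11.6 and 6.10 CPM in ILC2 and 169, 90.3 and 165 CPM in microglia (log2 fold -3.997, SE 0.58). Rgs1, which dampens chemokine receptor signals, had 2704 and 2130 CPM in ILC2, against 480, 523 and 426 CPM in microglia (log2 fold 2.34, SE 0.28).

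Ribosomal protein genes were higher in ILC2 almost as a block. Of 40 tested, 39 were called higher and none lower, with a median log2 fold of 2.04; leaving out 1 library gave 34 to 39, and scaling by total counts gave 39. Rps14 had 2007 and 3695 CPM in ILC2 and 689, 624 and 720 CPM in microglia (log2 fold 2.07, SE 0.31, adjusted p = 0.00255). Rpl32 had 2190 and 3789 CPM in ILC2, against 485, 551 and 505 CPM in microglia (log2 fold 2.54, SE 0.29). The second ILC2 library was the higher of the pair for both genes. Rpl30, the 1 member not called, had 3.07 and 1.90 CPM in ILC2 and 0.808, 2.17 and 1.77 CPM in microglia. Such genes have many near-identical copies in the genome, so their levels may depend on how the authors' counting treated shared reads, which was not tested. With total counts their median log2 fold was 2.36, where that of all tested genes was 0.31; with TMM factors the same 2 medians were 2.04 and -0.01.

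MHC class I genes had 5 of 12 members called higher, 3 without the second ILC2 or the second microglia library. H2-K1, a classical class I heavy chain, had 6304 and 9342 CPM in ILC2 and 1292, 1243 and 1148 CPM in microglia (log2 fold 2.67, SE 0.27). H2-D1 had 2800 and 3513 CPM in ILC2 and 964, 930 and 773 CPM in microglia (log2 fold 1.83, SE 0.25), and the 2 heavy chain genes are similar enough to share reads. B2m, their light chain, had 12370 and 20560 CPM in ILC2, against 10310, 10460 and 8105 CPM in microglia, and did not pass (log2 fold 0.77, 95% interval 0.15 to 1.40). The small GTPase gene Gimap6 had 449 and 617 CPM in ILC2 and 44.4, 75.9 and 36.1 CPM in microglia (log2 fold 3.35, SE 0.35), 1 of 8 members called higher among 15 of the Schlafen and GIMAP families.

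Some other called genes were named for a small p or a high level. Ptprcap, which binds CD45, had 1394 and 2855 CPM in ILC2, against 16.7, 7.31 and 16.1 CPM in microglia (log2 fold 7.31, or 6.70 without the second ILC2 library). Acot7, an acyl-CoA thioesterase, had 373 and 515 CPM in ILC2 and 24.95, 19.7 and 17.6 CPM in microglia (log2 fold 4.42, SE 0.32). Ly6a, which encodes Sca-1 and is 1 of the 17 receptors counted above, had 1622 and 2934 CPM in ILC2 and 258, 180 and 199 CPM in microglia (log2 fold 3.42, SE 0.33), and S100a4, a calcium-binding protein of motile cells, 836 and 1996 CPM in ILC2 and 36.9, 14.1 and 32.5 CPM in microglia (log2 fold 5.67, or 4.91 without the second ILC2 library).

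**Figure D4:**
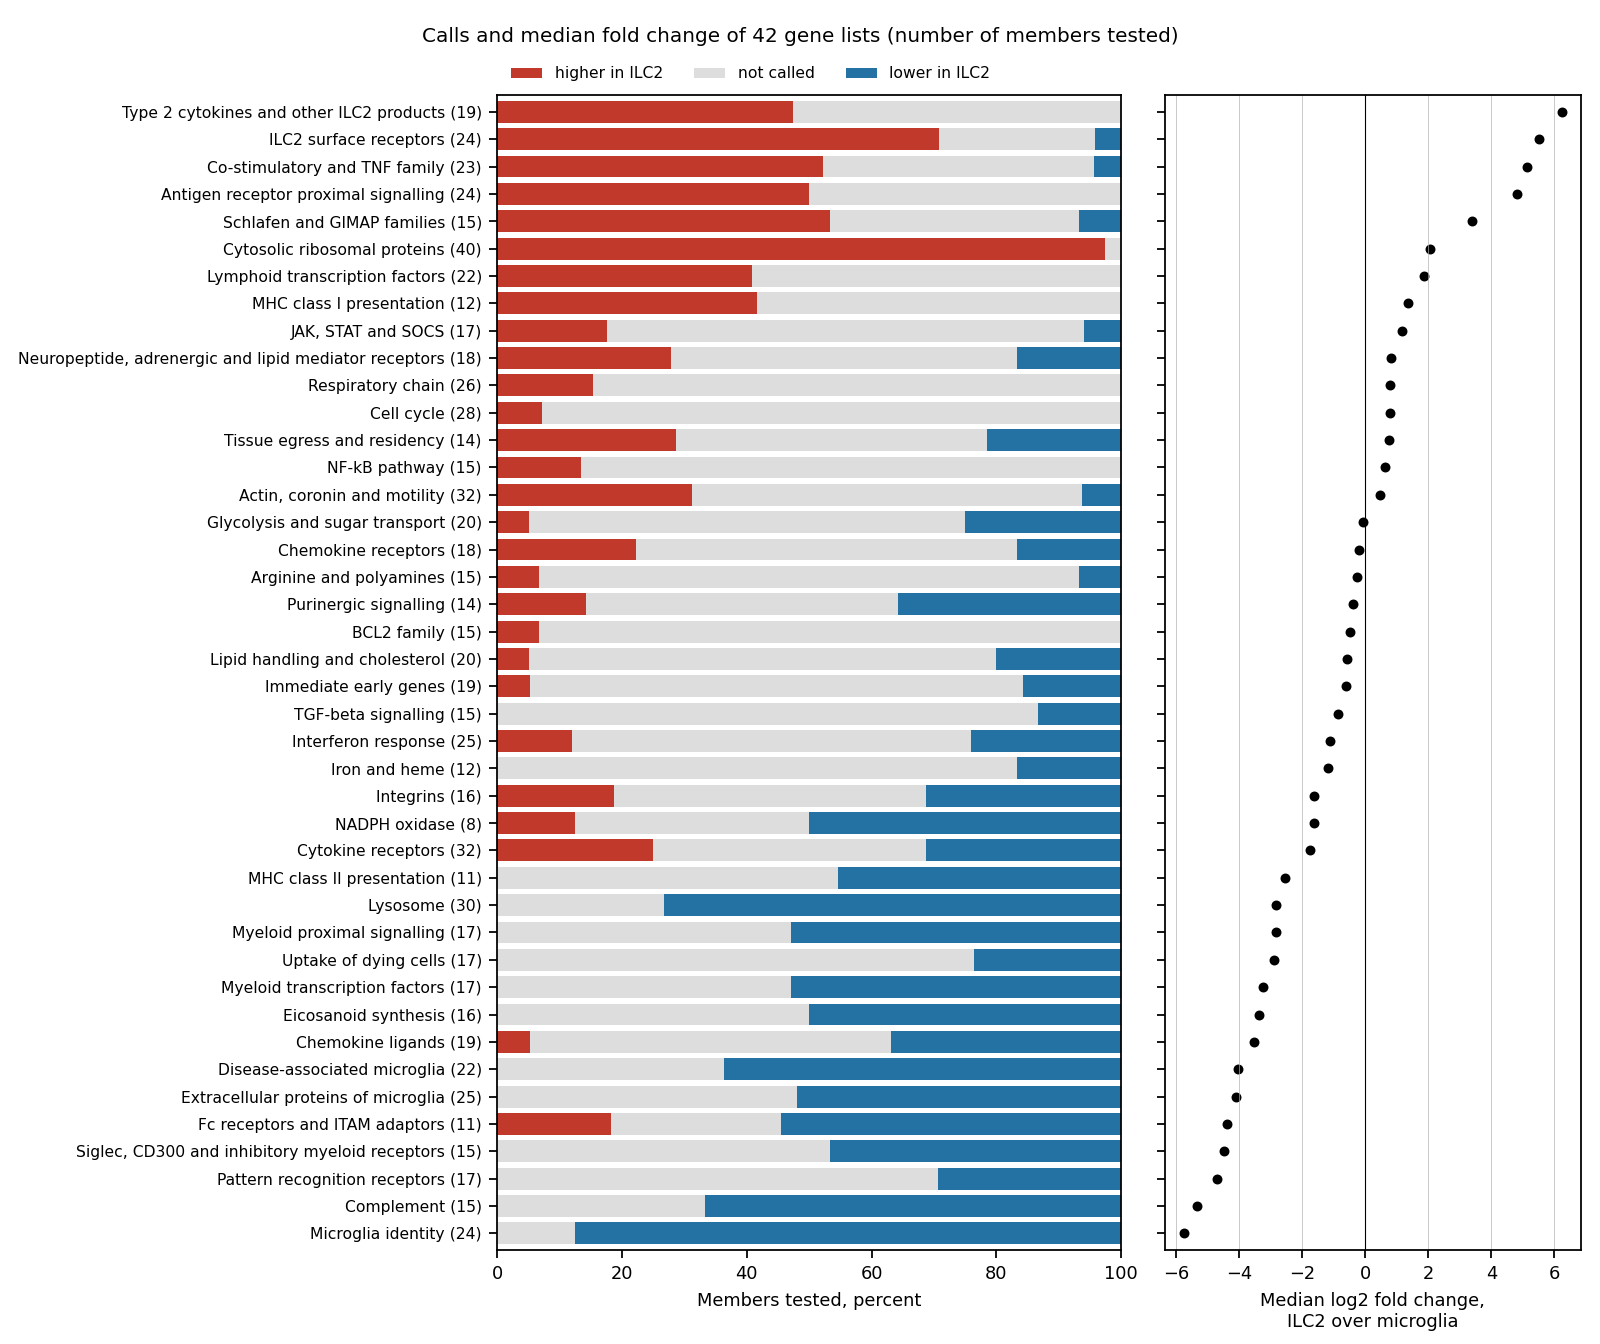
Share of tested members called higher in ILC2 (red), not called (grey) or lower (blue), and the median log2 fold change of ILC2 over microglia, for 42 gene lists ordered by that median, with the number of members tested in brackets. ILC2 products lead with a median of 6.24 and microglia identity genes close the order with -5.75. Among all tested genes 4.99% were called higher and 4.76% lower.

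On the microglial side, 21 of 24 identity genes were called lower in ILC2 and none higher, with a median log2 fold of -5.75. P2ry12, the ADP receptor of resting microglial processes, had 42.1 and 72.6 CPM in ILC2 and 6066, 6735 and 3305 CPM in microglia (log2 fold -6.55, SE 0.77). Csf1r, the receptor for CSF1 and IL-34, had 179 and 97.9 CPM in ILC2 and 6749, 8962 and 5205 CPM in microglia (log2 fold -5.65, SE 0.88). Both genes were lower in both ILC2 libraries than in any microglia library, as was every gene called lower. Tgfbr1, a TGF-beta receptor chain, had 15.4 and 16.2 CPM in ILC2 and 1027, 1412 and 966 CPM in microglia (log2 fold -6.17, SE 0.59). Mertk, a receptor for uptake of dying cells, had no count in ILC2 and 232, 377 and 265 CPM in microglia, at least 1214-fold lower in ILC2. In bulk samples, fewer cells of a type and less RNA per cell cannot be told apart.

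The identity genes were rarely at 0 in ILC2. Their level in the ILC2 libraries was a median of 1.58% and 1.60% of the mean microglia level, over the 21 genes called lower. Tmem119 stood at 0.53% and 0.54% and Mertk at 0. Selplg, which encodes the selectin ligand PSGL-1 and is also made by lymphocytes, stood at 27.9% and 28.9%, with 1726 and 1792 CPM in ILC2 and 6513, 6922 and 5150 CPM in microglia. Whether these low levels lie in the ILC2 themselves was not tested.

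Myeloid transcription factors had 9 of 17 members called lower in ILC2, 5 without the second ILC2 library, and none higher. Irf8, needed for microglial development, had 32.9 and 18.9 CPM in ILC2 and 608, 709 and 644 CPM in microglia (log2 fold -4.66, SE 0.47). Spi1, which encodes PU.1, had 7.91 and 18.7 CPM in ILC2, against 637, 501 and 393 CPM in microglia (log2 fold -5.26, or -6.01 without the second ILC2 library). Irf5, a factor in Toll-like receptor responses, had 90.6 and 48.6 CPM in ILC2 and 301, 359 and 387 CPM in microglia (log2 fold -2.33, SE 0.38). The ILC2 and microglia libraries did not overlap for these 3 factors, nor for any called gene. Maf, a macrophage factor that lymphocytes also make, had 91.7 and 117 CPM in ILC2 and 127, 174 and 238 CPM in microglia and did not pass.

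Complement and Fc receptor genes were low in ILC2. Of 15 complement genes 10 were called lower, 6 without the second ILC2 library, with a median log2 fold of -5.35. C1qb, a chain of the first complement component, had 344 and 591 CPM in ILC2 and 15400, 15880 and 14070 CPM in microglia (log2 fold -5.02, SE 0.42). Its partner chains C1qa and C1qc had log2 folds of -5.50 and -5.35. All 3 chains of the C1q molecule were thus called lower. C3 had 6.46 and 0.792 CPM in ILC2 and 56.2, 51.5 and 162 CPM in microglia and did not pass (adjusted p = 0.0974). Fcgr1, the high-affinity IgG receptor, had 5.002 and 7.92 CPM in ILC2, against 475, 482 and 405 CPM in microglia (log2 fold -6.13, SE 0.42, adjusted p = 0.000107). Fcgr3 had 49.8 and 80.6 CPM in ILC2 and 2983, 3029 and 2306 CPM in microglia (log2 fold -5.41, SE 0.45), and the inhibitory receptor Fcgr2b a log2 fold of -5.12. Fc receptor genes resemble one another and may share reads.

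The adaptors that carry activating signals split between the populations; of 11 Fc receptors and such adaptors, 2 were called higher and 6 lower in ILC2. Fcer1g, the Fc receptor gamma chain, had 127 and 200 CPM in ILC2 and 3766, 3153 and 3226 CPM in microglia (log2 fold -4.37, SE 0.37). Hcst, which encodes DAP10, had 342 and 640 CPM in ILC2 and 45.4, 78.0 and 63.7 CPM in microglia (log2 fold 2.98, SE 0.38). Trem2, a lipid-sensing receptor of microglia, had 45.1 and 86.0 CPM in ILC2, against 2252, 2445 and 2098 CPM in microglia (log2 fold -5.11, SE 0.44). Of 15 Siglec, CD300 and other inhibitory myeloid receptors, 7 were called lower; a fit of only the 5 libraries called 11 and the newer quasi-likelihood method 13. Cd300a, a phosphatidylserine receptor, had no count in ILC2 and 276, 355 and 293 CPM in microglia, at least 1285-fold lower in ILC2 (adjusted p = 8.28e-05). Lair1, an inhibitory collagen receptor, had 27.1 and 23.5 CPM in ILC2 and 1069, 1544 and 953 CPM in microglia (log2 fold -5.55, SE 0.46).

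Promoter letters of genes that were far apart between the populations were read from RefSeq windows (GRCm38.p6), which begin 250 bases before a listed gene start. Short letters of 4 factor families were looked for on both strands in these 250 bases, using the first window listed for each gene. GAGGAA, core letters bound by PU.1, stood in 31.3% of the windows of lower genes (152 of 485), in 23.5% of those of higher genes (113 of 480) and in 23.2% of those of all tested genes. AGATAA, bound by GATA factors, stood in 9.79% of the windows of higher genes, in 6.60% of those of lower genes, in 5.94% of those of all tested genes and in 10.3% of all 27025 windows in the table. The RUNX letters TGTGGT stood in 16.7% and 12.2% of the windows of higher and lower genes, against 11.3% for all tested genes and 14.2% for all windows, and the AP-1 letters TGACTCA in 4.17% and 4.12%, against 2.98% and 4.43%. Across all windows in the table GAGGAA stood in 23.1%. These shares are descriptions with no test, and a match is not a binding site.

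The first 3 windows below belong to genes lower in ILC2 and the fourth to the IL-33 receptor gene. They are shown because each holds 1 match among these letters, and they were chosen after the matches were seen. Capitals mark GAGGAA read on the opposite strand (TTCCTC) in the first 3 windows, beginning 39, 55 and 40 bases before the start used for each window. In the Il1rl1 window, 1 of 2 listed for that gene, they mark AGATAA on the gene's own strand, 217 bases before that start. The Cd300a window lies inside the gene's full span (chr11:114889152-114901946), and the Il1rl1 window inside the span printed above. Both therefore precede a start within the gene, not its outermost start.
Cd300a, chr11:114889791-114890040, plus strand: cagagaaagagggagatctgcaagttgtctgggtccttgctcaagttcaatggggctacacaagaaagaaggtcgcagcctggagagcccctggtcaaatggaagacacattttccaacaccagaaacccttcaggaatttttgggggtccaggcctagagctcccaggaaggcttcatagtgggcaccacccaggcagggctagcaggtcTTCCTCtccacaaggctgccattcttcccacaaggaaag
Fcgr1, chr3:96293970-96294219, minus strand: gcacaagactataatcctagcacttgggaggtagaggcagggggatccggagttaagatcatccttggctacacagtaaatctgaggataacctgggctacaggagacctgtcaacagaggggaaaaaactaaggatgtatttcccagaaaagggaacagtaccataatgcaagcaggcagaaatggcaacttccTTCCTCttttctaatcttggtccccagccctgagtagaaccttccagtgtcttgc
Trem2, chr17:48346151-48346400, plus strand: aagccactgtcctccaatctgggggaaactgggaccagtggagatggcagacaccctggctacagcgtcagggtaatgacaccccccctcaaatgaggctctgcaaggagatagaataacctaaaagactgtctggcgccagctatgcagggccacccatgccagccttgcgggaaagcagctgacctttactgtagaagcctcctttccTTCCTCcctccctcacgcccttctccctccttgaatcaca
Il1rl1, chr1:40429320-40429569, plus strand: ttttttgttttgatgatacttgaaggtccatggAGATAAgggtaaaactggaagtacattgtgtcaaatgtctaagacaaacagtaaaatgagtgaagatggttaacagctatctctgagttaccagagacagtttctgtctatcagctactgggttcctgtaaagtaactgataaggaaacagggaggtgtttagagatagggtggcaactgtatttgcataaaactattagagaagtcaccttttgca
GAGGAA letters were not confined to genes low in ILC2: the window of Il5, which was higher in ILC2, holds them on the opposite strand 46 bases before its start. The windows of Gata3, Nmur1 and P2ry12 held none of the letters.

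Lysosomal genes were lower in ILC2, with 22 of 30 called lower, none higher and a median log2 fold of -2.83. Ctsd, the protease cathepsin D, had 1835 and 2111 CPM in ILC2, against 29040, 38020 and 25320 CPM in microglia (log2 fold -3.96, SE 0.34). Ctss, cathepsin S, had 494 and 587 CPM in ILC2 and 16150, 17760 and 13550 CPM in microglia (log2 fold -4.87, SE 0.40). Cst3, the secreted inhibitor cystatin C, had 1800 and 3174 CPM in ILC2 and 50580, 55880 and 48430 CPM in microglia (log2 fold -4.38, SE 0.40). No ILC2 library reached the lowest microglia library for these 3 genes, nor for any gene called lower. Cd63, a tetraspanin of late endosomes, had 390 and 587 CPM in ILC2 and 1422, 1707 and 1580 CPM in microglia and did not pass (adjusted p = 0.0544).

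Genes known from disease-associated microglia had 14 of 22 members called lower in ILC2 and none higher (median log2 fold -4.03). Apoe, the lipid carrier, had 692 and 933 CPM in ILC2 and 10510, 13000 and 10690 CPM in microglia (log2 fold -3.81, SE 0.65). Lyz2, lysozyme of myeloid cells, had 102 and 180 CPM in ILC2, against 7647, 4554 and 7610 CPM in microglia (log2 fold -5.55, SE 0.54). The second microglia library was lowest in Lyz2 and in neutrophil markers, and any part of neutrophils in Lyz2 was not tested. Cst7, cystatin F, had 188 and 305 CPM in ILC2 and 287, 441 and 265 CPM in microglia, with overlapping groups and a 95% interval of the log2 fold of -1.20 to 0.35.

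Antigen presentation by MHC class II had 5 of 11 members called lower in ILC2, and 9 with the newer quasi-likelihood method. Cd86, a co-stimulatory ligand, had no count in ILC2 and 450, 667 and 322 CPM in microglia, at least 2000.0-fold lower in ILC2. H2-DMa, which loads peptides onto class II, had 80.9 and 113 CPM in ILC2 and 740, 740 and 652 CPM in microglia (log2 fold -2.87, SE 0.37). H2-Aa had 130 and 133 CPM in ILC2, against 814, 457 and 329 CPM in microglia, and did not pass (adjusted p = 0.0720).

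Chemokine ligands had 7 of 19 members called lower in ILC2, 4 without the first ILC2 library, and 1 higher, Ccl1. Ccl3 had 29.9 and 69.3 CPM in ILC2 and 1741, 1647 and 1391 CPM in microglia (log2 fold -5.004, or -5.73 without the second ILC2 library). Ccl4 had 11.4 and 62.8 CPM in ILC2, against 3542, 3075 and 2617 CPM in microglia (log2 fold -6.37, or -5.56 and -8.08 without the first and the second ILC2 library). Cxcl2, a neutrophil attractant, had 151 and 73.0 CPM in ILC2 and 244, 126 and 95.5 CPM in microglia, and the groups overlapped. The oxidase gene Ncf1 had 27.4 and 17.7 CPM in ILC2 and 1008, 660 and 736 CPM in microglia (log2 fold -5.15, SE 0.43), 1 of 4 members called lower among 8 of the NADPH oxidase list. Neutrophil markers were high in the same microglia libraries, and any part of neutrophils in these values was not tested.

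The 12 lower genes with the smallest p also included Aif1, Sgk1, Rnase4 and 4632428N05Rik. Aif1, which encodes the macrophage protein IBA1, had 27.0 and 42.6 CPM in ILC2, against 942, 946 and 928 CPM in microglia (log2 fold -4.75, SE 0.35, adjusted p = 0.000113). Sgk1, a serum- and glucocorticoid-induced kinase, had 66.7 and 51.1 CPM in ILC2 and 1756, 1860 and 1317 CPM in microglia (log2 fold -4.80, SE 0.36). Rnase4, a secreted ribonuclease and 1 of 13 members called lower among 25 extracellular proteins of microglia, had 106 and 95.1 CPM in ILC2 and 1731, 2133 and 1312 CPM in microglia (log2 fold -4.10, SE 0.34). 4632428N05Rik had 92.5 and 113 CPM in ILC2 and 2312, 2317 and 1930 CPM in microglia (log2 fold -4.41, SE 0.37). The groups did not overlap for any of these 4 genes, which the choice of the 12 required.

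Nucleotide and lipid mediator genes gave further contrasts, in both directions. Of 14 genes of purinergic (nucleotide) signalling, 2 were called higher, P2ry10 and Nt5e, and 5 lower, with a median log2 fold of -0.39. P2ry10 had 90.5 and 56.2 CPM in ILC2 and 0, 2.76 and 0 CPM in microglia (log2 fold 6.29, SE 1.34). Of 18 neuropeptide, adrenergic and lipid mediator receptors, 5 were called higher, Cysltr2 and Ltb4r1 among them, and 3 lower. P2ry13, a second ADP receptor, had 20.7 and 11.3 CPM in ILC2 and 1986, 2554 and 1297 CPM in microglia (log2 fold -6.92, SE 0.87). Entpd1, which encodes the ectonucleotidase CD39, had 15.7 and 8.71 CPM in ILC2, against 612, 791 and 649 CPM in microglia (log2 fold -5.81, SE 0.51). Of 16 genes of eicosanoid synthesis and breakdown, 8 were called lower and none higher. Hpgd, which inactivates prostaglandins, had 11.7 and 9.03 CPM in ILC2 and 723, 812 and 398 CPM in microglia (log2 fold -5.96, SE 0.66). The fructose transporter gene Slc2a5 had 19.5 and 14.1 CPM in ILC2 and 1408, 1132 and 714 CPM in microglia (log2 fold -6.01, SE 0.61).

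Of 32 cytokine receptors 8 were called higher and 10 lower. Ifngr1, an interferon gamma receptor chain, had 271 and 310 CPM in ILC2 and 1541, 1721 and 1223 CPM in microglia (log2 fold -2.36, SE 0.29), and Il10ra, the IL-10 receptor, 59.9 and 84.3 CPM in ILC2 and 424, 528 and 508 CPM in microglia (log2 fold -2.76, SE 0.34). Of 17 pattern recognition genes 5 were called lower and none higher, all 17 with a negative log2 fold, and 13 were called lower with the newer quasi-likelihood method. Unc93b1, which carries Toll-like receptors to endosomes, had 114 and 67.6 CPM in ILC2, against 2435, 2475 and 1721 CPM in microglia (log2 fold -4.60, SE 0.62). Among 17 genes of proximal myeloid signalling 9 were called lower, 2 without the second ILC2 library and 5 without the second microglia library; Ptpn6, the phosphatase SHP-1, was one of them, with 83.1 and 68.4 CPM in ILC2 and 654, 539 and 432 CPM in microglia (log2 fold -2.84, SE 0.32). Interferon response genes had 3 of 25 called higher and 6 lower, with 2 lower without the first ILC2 library and 3 without the third microglia library; Isg20, an exonuclease, had 63.98 and 103 CPM in ILC2 and 12.6, 13.8 and 8.64 CPM in microglia (log2 fold 2.84, SE 0.40). Bcl2, the survival factor, was the 1 gene called among 15 of its family, at 237 and 299.7 CPM in ILC2 and 6.57, 21.8 and 25.8 CPM in microglia (log2 fold 3.89, SE 0.57). The family thus held no larger share of calls than the 9.75% over all tested genes. Of 26 respiratory chain genes 4 were called higher, none without the second ILC2 library, 9 without the first, 1 without any one microglia library and 14 with total counts; all 26 had a positive log2 fold.

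**Figure D5:**
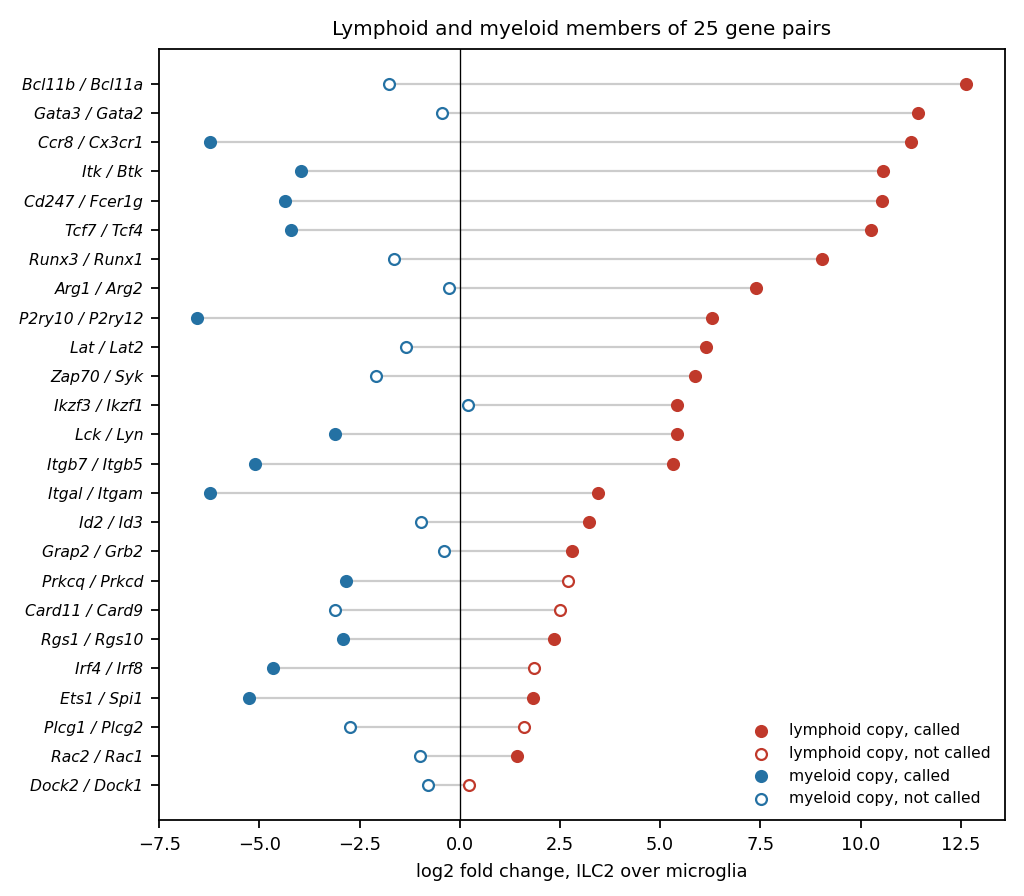
Log2 fold change of ILC2 over microglia for the lymphoid (red) and myeloid (blue) member of 25 gene pairs; filled points passed the test and open points did not. The pairs are ordered by the lymphoid member, from Bcl11b at the top to Dock2 at the bottom.

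Genes were compared as 25 pairs, each with a member assigned to the lymphoid and a member assigned to the myeloid side. The sides are labels only: Id3, on the myeloid side, is also in the list of lymphoid factors, and not every pair is of 1 family. The lymphoid member was called higher in ILC2 in 20 pairs and the myeloid member lower in 12, both in 10 pairs, and neither was called in the other direction. Among all tested genes 4.99% were called higher and 4.76% lower. The pairs hold Gata3, Cx3cr1 and other genes named above, so these counts are not separate support for the contrast. Among integrin beta chains, Itgb7 had a log2 fold of 5.33 and Itgb5 of -5.11, the last with 7.02 and 9.11 CPM in ILC2 against 282, 237 and 316 CPM in microglia. Tcf4, an E protein that shares its name but not its family with the lymphoid factor Tcf7, had 10.7 and 8.95 CPM in ILC2 and 220, 179 and 146 CPM in microglia (log2 fold -4.21, SE 0.54). Prkcd, a protein kinase C isoform, had 60.0 and 41.0 CPM in ILC2 and 371, 386 and 321 CPM in microglia (log2 fold -2.83, SE 0.41), while its T cell relative Prkcq did not pass (26.9 and 42.2 CPM in ILC2; 0, 15.3 and 0.625 CPM in microglia). Gata2 was low in both populations, at 0 and 8.95 CPM in ILC2 and 4.55, 9.87 and 3.96 CPM in microglia, so the Gata3 contrast had no counterpart there. Ikzf1, a factor shared by blood lineages, had 191 and 94.8 CPM in ILC2 and 131, 124 and 117 CPM in microglia and did not pass (95% interval of the log2 fold -0.63 to 1.05).

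Several abundant genes did not pass the test. Actb, beta actin, had 18270 and 25710 CPM in ILC2, against 18910, 15750 and 15900 CPM in microglia (log2 fold 0.38, 95% interval -0.18 to 0.95). Itm2b had 6454 and 8591 CPM in ILC2 and 9192, 9979 and 7650 CPM in microglia (95% interval -0.85 to 0.35). Gapdh had 520 and 691 CPM in ILC2 and 722, 644 and 606 CPM in microglia (95% interval -0.70 to 0.47), and Pkm, pyruvate kinase, an interval of -0.62 to 0.58. In the glycolysis and sugar transport list, which holds the last 2, 1 of 20 genes was called higher and 5 lower. Of 28 cell cycle genes 2 were called higher and none lower, counts that reached 6 and 1 with the newer quasi-likelihood method. Over all tested genes 4.99% were called higher and 4.76% lower in the main fit. Nfkbia, the feedback inhibitor of NF-kB, had 1727 and 1659 CPM in ILC2 and 1511, 1127 and 969 CPM in microglia (95% interval of the log2 fold -0.26 to 1.25).

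T cells were sorted from brains of mice given the same treatment, and their 3 libraries entered the fit to estimate the spread. On the scale of log2(mean CPM + 0.5), the T cell level was nearer to that of ILC2 than to that of microglia for 559 of the 649 higher genes and for 513 of the 619 lower genes. The same share over all tested genes was not taken, so these counts have no background beside them. Il1rl1, with 1045 and 553 CPM in ILC2, had 38.6, 6.82 and 32.1 CPM in T cells, and Nmur1 had 3.36, 7.65 and 9.45 CPM in T cells. Vipr2, a receptor for vasoactive intestinal peptide, had 245 and 160 CPM in ILC2, 0.867, 0 and 7.46 CPM in T cells and 0, 0 and 0.625 CPM in microglia (log2 fold 9.87 over microglia, or 14.16 without the third microglia library). Il2rb, in contrast, had 151 and 141 CPM in ILC2 and 1199, 1242 and 1101 CPM in T cells. No test of ILC2 against T cells was made here.

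The 2 ILC2 libraries were not alike for every gene. Among genes with at least 100 CPM in ILC2, the 6 with the largest fold between them were Kit, Csrnp1, Nr4a1, Ttr, Spty2d1 and Stk10. Kit, the stem cell factor receptor, had 296 and 41.99 CPM in ILC2, 7.05 times as much in the first library, and 0.101, 0 and 4.90 CPM in microglia, and did not pass (adjusted p = 0.0886). Nr4a1, an immediate early nuclear receptor, had 1493 and 245 CPM in ILC2 and 168, 144 and 97.5 CPM in microglia (log2 fold 2.67, adjusted p = 0.0261), a call lost without the first ILC2 library (log2 fold 0.90) or any 1 microglia library; without the second ILC2 library the log2 fold was 3.45. Ttr, transthyretin of the choroid plexus, ran the other way, with 544 and 3125 CPM in ILC2 and 2660, 954 and 1984 CPM in microglia.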

How the data were processed

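RNA of sorted brain populations was sequenced as single-end reads, aligned to mm10. Per the submitters' processing notes the tools named are STAR 2.5.3a, DESeq2 1.1, Cufflinks 2.0 as well as FastQC 1.0.0 and bcl2fastq 2.20.0.422, with no role given; the counting program and its strand setting are not given in the sources used here. The authors deposited whole-number counts per gene symbol; the table is called normalized, but its column totals differ and every whole number from 1 to 40 occurs in each of the 8 libraries, so the values were treated as raw counts, on which every test rests. A summary row for reads outside genes, 53.8% to 61.0% of each library, a row for ambiguous reads and 27 rows whose symbols had become dates were left out. One library column, headed ILC1, was not used (1 column). The labels list no ILC1 sample, and 3 ILC2 samples against 2 columns headed ILC2. Whether the ILC1 column holds the remaining ILC2 sample is not given. Columns carry a population name and no replicate number, so library numbers here only name them.

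Counts were tested with edgeR 4.0.16 (R 4.3.3) by the legacy quasi-likelihood F test with TMM factors, in 1 fit of 8 libraries (2 ILC2, 3 microglia, 3 T cells), for the 13000 genes that averaged 10 or more counts over these libraries. Benjamini-Hochberg adjustment covered all tested genes, and called means an adjusted p under 0.05 and a log2 fold of at least 1 in size; the common coefficient of variation was 0.967. On simulated counts, with 100 genes changed 4-fold and 100 changed 16-fold among 13000, the fit recovered 3% and 30% of them. It made 2 false calls among the unchanged genes. The data held far more called genes (1268), which loosens the cutoff on p, so these shares need not hold for the data. A gene that was not called may still differ. Floors of 3 counts and counting intervals cover counting error only. The members and the 42 gene lists (744 genes, of which 741 matched as listed) were chosen with earlier results of these data known. Genes were named by rule: markers, the 12 smallest p in each direction, up to 4 called members of a list per direction and 4 not called by level, pair members, and genes differing most between the ILC2 libraries. The 12 were taken only from called genes whose groups did not overlap and whose level reached a minimum in the higher population. Cd6 is a marker. Some genes that the rule names are not reported here. Alternatives used DESeq2 1.42.0, limma 3.58.1 voom, other scalings and filters, and left out each library in turn. Gene positions and promoter windows are RefSeq's for GRCm38.p6, the assembly of mm10.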

Additional observations from a re-analysis of the deposited data

How the results depend on the processing

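The sample titles give the populations matching numbers, so ILC2 and microglia libraries may share an animal or pool. No paired analysis was possible because the columns carry no replicate numbers. The counts of 649 higher and 619 lower genes became 1009 and 1241 with the newer quasi-likelihood method and 1024 and 1061 with limma-voom, 1379 lower with DESeq2 and 1017 higher with total counts. Leaving out 1 library gave 342 to 557 higher and 369 to 438 lower genes; 287 higher and 255 lower genes kept their call in all 5 such fits. Other factors, filters, a fit of the 5 libraries alone, no abundance trend and no minimum fold gave 529 to 709 higher and 545 to 852 lower genes. Of the called genes named, limma-voom lost S100a9. Taken off the log scale, some of its folds were over 1.5 times apart from those of the main fit, besides genes with no count in 1 population. These genes, with their limma-voom log2 folds, were Areg (7.37), Arg1 (9.81), Calca (8.83), Ccr8 (12.17) and Gata3 (12.13). The others were Il5 (11.92), Ptpn22 (5.95), Skap1 (9.47), Tnfrsf18 (8.12) and Vipr2 (10.70). Il17rb, Pparg, Il4, Il6, Kit, Cd63, C3, H2-Aa, B2m, Prkcq and Spty2d1, not called, passed under at least 1 alternative, and no called gene named turned its direction. The causes were not tested. With 2 ILC2 libraries and a wide spread between libraries, 3126 genes had an unadjusted p under 0.05 and 1268 were called.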
